A study of Bos taurus with 45 samples.

Results

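Ruminal papillae of 10 heifers were compared on the diet fed before any grain. The 5 heifers of the down group (DG: 192, 314, 236, 170 and 182) were those whose mean ruminal pH later fell between 72% and 89% grain, and the 5 heifers of the up group (UG: 262, 178, 352, 286 and 360) were those whose pH later rose. The comparison used the 10 libraries of these heifers on 0% grain, out of 45 libraries from 15 heifers on 3 diets. It asked whether papillae of the later pH groups already differed before grain was fed. All were Angus-Hereford cross-bred beef heifers of about 8 months, all went through the same grain transition (rapid in the labels, both rapid and gradual in the paper), and the papillae were biopsied from the ventral sac on day 3. No treatment separated DG from UG at that time: each group is defined by a pH change that came later, which the study also used to form a balanced group (BG) of the 5 heifers with similar pH. The labels write 3%, 75% and 92% grain where the paper writes 0%, 72% and 89%, and the paper's percentages are used. The labels give the heifer and the diet, and the pH groups come from the study.

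The ruminal epithelium is a stratified, keratinised lining that absorbs the short-chain fatty acids made by microbial fermentation and, with them, exchanges protons and bicarbonate with the rumen fluid. Its basal cells divide and its outer cells cornify and are shed. Readily fermented grain speeds acid production, and the capacity of the lining to take up acid is one of the factors that set ruminal pH.

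The heifer labels of the 10 libraries were checked first, because the comparison rests on them. A set of 100 genes whose levels differed between heifers but were alike on 72% and 89% grain was chosen from the grain libraries alone. Over these genes, each 0% grain library was correlated with the mean of the 72% and 89% grain libraries of every heifer. For 12 of the 15 libraries the best match was the heifer on the label, with Pearson correlations across genes from 0.675 to 0.954. The library labelled 182 (DG) had a correlation of 0.341 with the grain libraries of heifer 182 and 0.922 with those of heifer 286 (UG). Conversely, the library labelled 286 had a correlation of 0.316 with heifer 286 and 0.945 with heifer 182. The library labelled 352 (UG) matched no heifer: its correlation was -0.0637 with heifer 352 and at most 0.157 with any other. With 50 or 200 genes the same 12 libraries matched their labels. These correlations are a description over genes, which are not independent replicates.

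**Figure D1:**
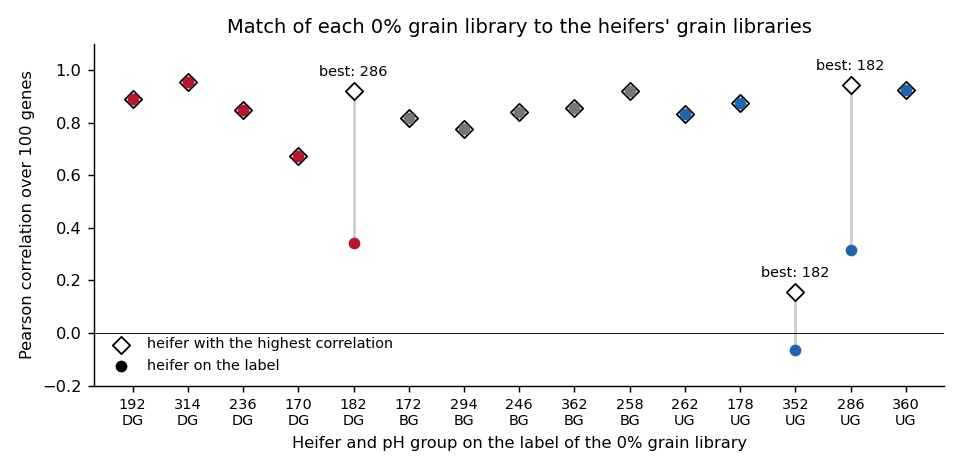
Pearson correlation, over 100 genes, of each 0% grain library (horizontal axis: heifer and pH group on its label) with the mean of the 72% and 89% grain libraries. Coloured points give the heifer on the label (red DG, grey BG, blue UG) and open diamonds the heifer with the highest correlation. The libraries labelled 182 and 286 each matched the other heifer, at 0.922 and 0.945, and the library labelled 352 reached at most 0.157.

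A second set of 100 genes was chosen without heifers 182, 286 and 352. Among the other 12 heifers it gave correlations from 0.677 to 0.959 within a heifer and from -0.447 to 0.31 between different heifers. Grain libraries labelled 182, 286 and 352 correlated across these labels at 0.31 to 0.546. The 0% grain library labelled 182 correlated at 0.868 and 0.902 with the 72% and 89% grain libraries labelled 286. That labelled 286 correlated at 0.89 and 0.941 with those labelled 182. On these genes the 72% and 89% grain libraries labelled 182 correlated at 0.911, those labelled 286 at 0.785 and those labelled 352 at 0.68. The 0% grain library labelled 352 correlated at -0.03 and 0.164 with the 72% and 89% grain libraries of that heifer. The data do not show which of the labels is at fault, and no library was moved to the other group. Results are given with all 10 libraries under their labels. The tests over all genes, the gene lists and the genes tested by name are given again for the 4 DG libraries (192, 314, 236 and 170) and 3 UG libraries (262, 178 and 360) that matched. Counts of genes without overlap or past a fold change, and the genes followed on grain, are given for the 10 libraries under their labels only.

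Levels are given in RPM, the share of a gene in every 1000000 reads on genes of its library. The 10 libraries held from 24629160 to 34061478 such reads, so that RPM 1 stood for 29.5 ± 2.42 reads in DG and 29.0 ± 3.84 reads in UG (SD, n = 5 each), and for 24.6 reads or more in each library. Between 11,936 and 12,287 genes exceeded RPM 1 in a library. The 10 highest genes held 19.2% to 23.1% of the reads. No pair of libraries agreed within sampling noise, and all diets were sequenced in each lane, though which library ran in which lane is not given in the sources used here.

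None of the 11,516 genes tested differed between DG and UG on 0% grain past the threshold, a Benjamini-Hochberg adjusted p under 0.05 in limma and a fold change over 1.5 (0% of genes called; smallest adjusted p 0.534). At an unadjusted p under 0.05 there were 914 genes, 7.94% of those tested, of which 708 (6.15%) were higher in DG and 206 (1.79%) were higher in UG. The values of the 5 DG and the 5 UG heifers did not overlap for 149 genes (1.29%), 110 higher in DG (0.955%) and 39 higher in UG (0.339%). Without regard to a test, the difference of mean log2(RPM + 1) exceeded 1.5-fold toward DG for 133 genes (1.15%) and toward UG for 56 (0.486%). Tests on the recovered reads called 0 genes in edgeR, with 891 at an unadjusted p under 0.05, and 10 genes in DESeq2, with 1014. Without heifer 262, limma gave 608 genes at an unadjusted p under 0.05. In the 4 DG and 3 UG libraries that matched their labels, limma called 0 genes (0%, smallest adjusted p 0.329), and 884 genes (7.68%) had an unadjusted p under 0.05, 656 (5.70%) higher in DG and 228 (1.98%) higher in UG.

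The absence of calls does not show that the groups were alike. The median standard error of the log2 difference was 0.132, and the median 95% interval reached 0.286 to either side. For 11,020 genes (95.7%) the whole interval lay within a 2-fold difference. Of the log2 differences themselves, the 5th and 95th percentiles were -0.26 and 0.38.

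The excess of genes higher in DG depended on scaling. Scaling factors by the trimmed mean of M values (TMM) were lowest in the UG libraries 262 (0.941) and 352 (0.935) and between 0.968 and 1.067 in the other 8. With TMM scaling, 493 genes were higher in DG and 389 higher in UG at an unadjusted p under 0.05, a share of 55.9% higher in DG against 77.5% on the RPM scale. The median log2 difference of all genes moved from 0.05 to 0.004.

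Over the whole transcriptome, pH group held 13.8% of the variance of log2(RPM + 1) on 0% grain (exact permutation test over all regroupings of the heifers, p = 0.23). In the 7 libraries that matched, it held 21.8% (exact permutation test over 35 regroupings, p = 0.229). The mean distance between libraries, as the root of the summed squared log2 differences, was 47.1 within DG, 41.3 within UG and 45.2 between the groups. The difference of 5.83 between DG and UG was not larger than regrouping gave (exact permutation test, two-sided, p = 0.5), nor was that of 7.02 in the 7 libraries (p = 0.543, exact permutation test). Heifer 170 stood farthest from the others, at a mean distance of 54.8 from DG and 58.3 from UG. Leaving out its library brought the DG minus UG difference to 0.743. The first principal component held 33.0% of the variance, with heifer 170 at a score of 41.1 and heifer 262 (UG) at -27.3. The other 8 libraries lay between -10.3 and 19.8, DG and UG mixed.

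**Figure D2:**
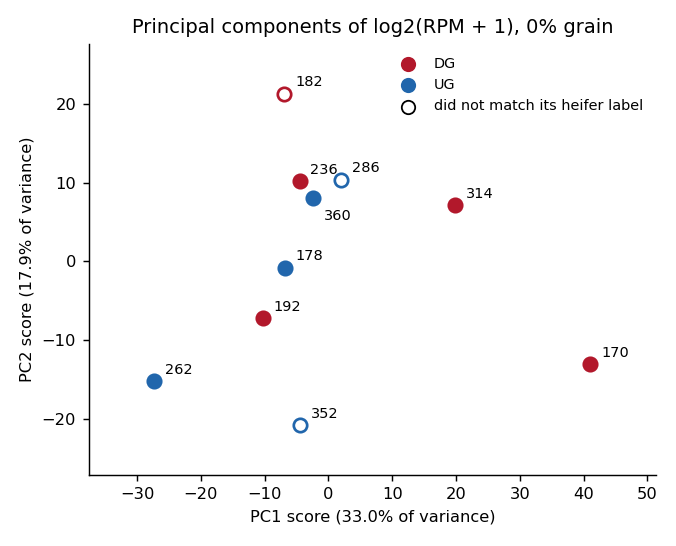
Scores on the first 2 principal components of log2(RPM + 1) over 11,516 genes for the 10 libraries on 0% grain. Red points are DG, blue points UG, and open points are the libraries labelled 182, 286 and 352 that did not match their heifer. DG and UG libraries are mixed in the middle, with heifers 170 and 262 at the ends of the first component.

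Gene lists from the study's comparisons of diets were then followed before grain. Those within DG or UG were chosen on other libraries of the same heifers (72% and 89% grain), and those against 0% grain were chosen with these 10 libraries among others, so none of them is independent evidence. Of the 122 genes listed as rising in UG from 72% to 89% grain, 109 were tested, and 42 of them (38.5%) had an unadjusted p under 0.05 with a higher level in DG on 0% grain, where 6.15% of all genes did. Another 5 were higher in UG. None passed the adjusted threshold. The median log2 difference was 0.35 (quartiles 0.14 and 0.58), against 0.05 for all genes, and 0.31 after TMM scaling. In the 4 DG and 3 UG libraries that matched, 57 of the 109 genes (52.3%) were higher in DG at an unadjusted p under 0.05, where 5.70% of all genes were, and the median log2 difference was 0.57.

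By heifer, the median deviation of these 109 genes from their mean over the 10 libraries was 0.38 in heifer 192, -0.10 in heifer 314, 0.18 in heifer 236, 0.58 in heifer 170 and -0.13 in the library labelled 182. In UG it was -0.44 in heifer 262, -0.20 in heifer 178, 0.20 in the library labelled 352, -0.15 in that labelled 286 and -0.27 in heifer 360. The groups overlapped through the library labelled 352 and not among the 7 libraries that matched. Heifer 170 was the highest, and without it 25 of the 109 genes were higher in DG at an unadjusted p under 0.05 and the median log2 difference was 0.28. Without heifer 262, the lowest, the count was 27.

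Across diets, the deviation of the same 109 genes from their mean over all 45 libraries averaged -0.42 ± 0.22 in UG on 0% grain (SD over 5 heifers), -0.32 ± 0.25 on 72% grain and 0.42 ± 0.27 on 89% grain. In DG it was -0.04 ± 0.32, 0.16 ± 0.31 and 0.28 ± 0.27, and in BG -0.36 ± 0.44, 0.004 ± 0.24 and 0.34 ± 0.19. The values of UG on 72% and 89% grain are those that chose the list. On 0% grain the mean of UG lay nearer to that of BG than to that of DG, and the heifers of DG (-0.38 to 0.37) and UG (-0.68 to -0.08) overlapped.

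Genes listed as higher on 89% than on 0% grain gave a similar picture. Of 302 such genes, 80 (26.5%) were higher in DG and 3 higher in UG at an unadjusted p under 0.05, with a median log2 difference of 0.21. In the 7 libraries that matched, 94 (31.1%) were higher in DG, with a median of 0.27. Without heifer 262 or heifer 170 the count fell to 49 or 52. The overlap with the preceding list was 61 genes, 56.0% of the 109 and 20.2% of the 302. Among these 61, all log2 differences were positive and 32 had an unadjusted p under 0.05. Of the 241 genes in the 89% grain list alone, 48 (19.9%) were higher in DG, with a median log2 difference of 0.11. Of the 48 in the UG list alone, 10 (20.8%) were higher in DG and 5 (10.4%) higher in UG, where 6.15% and 1.79% of all genes were. Their median log2 difference was 0.08, with 28 positive and 20 negative. It was 0.49 for the 61 shared genes and 0.05 for all genes. The shared genes are also in a list chosen with these 10 libraries among others.

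Among the remaining lists, none reached the shares higher in DG of these lists. Of 154 genes listed as falling in UG, 14 (9.09%) were higher in DG and 0 higher in UG, with a median log2 difference of 0.22 that became 0.07 in the 7 libraries, where 6 were higher in DG. Without 1 heifer the count of 14 ranged from 6 (without the library labelled 352) to 38 (without heifer 192), and it was 9 without that labelled 182 and 23 without heifer 360. Of 40 genes listed as falling in DG, 0 were higher in DG and 2 (5.0%) higher in UG, where 6.15% and 1.79% of all genes were, and in the 7 libraries 2 were higher in DG and 3 (7.5%) higher in UG. The list rising in DG had 17 genes tested, with 3 (17.6%) higher in DG and 2 (11.8%) higher in UG, both shares above those of all genes but resting on few genes. In the 7 libraries these counts were 4 (23.5%) and 1 (5.88%), where 5.70% and 1.98% of all genes were. Genes higher on 72% than on 0% grain numbered 241, with 17 (7.05%) higher in DG and 2 (0.83%) higher in UG. In the 7 libraries there were 16 (6.64%) and 2 (0.83%). Of 93 genes lower on 89% grain, 4 (4.30%) were higher in DG and 2 (2.15%) higher in UG. Of 47 genes lower on 72% grain, 4 (8.51%) were higher in DG and 3 (6.38%) higher in UG. In the 7 libraries, 5.70% of all genes were higher in DG and 1.98% higher in UG. There, 8 (8.60%) of the 93 genes were higher in DG and 8 (8.60%) higher in UG. For the 47 genes, 8 (17.0%) were higher in DG and 2 (4.26%) higher in UG. These shares rest on few genes.

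**Figure D3:**
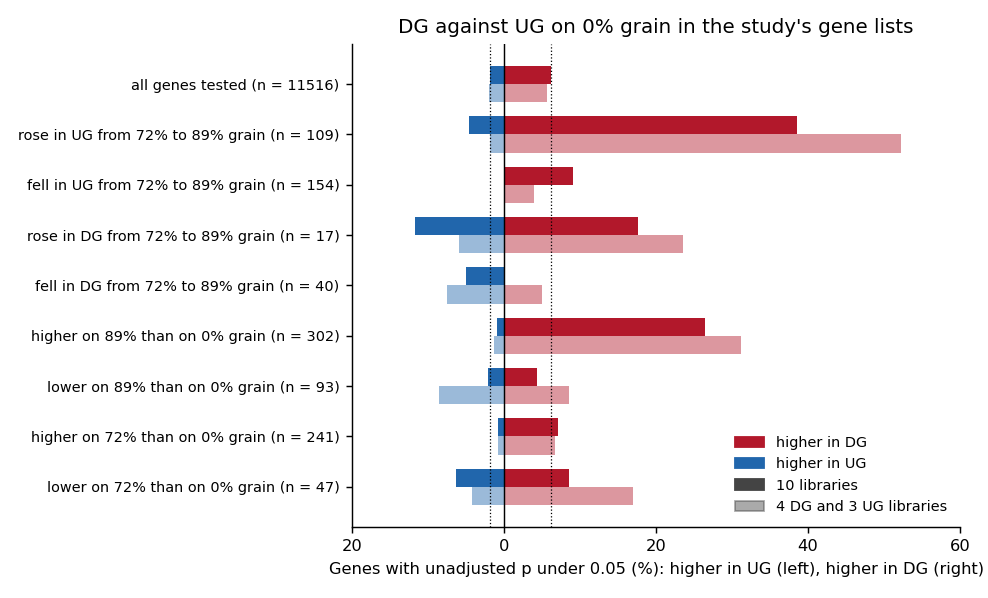
Percent of the genes of each list with an unadjusted limma p under 0.05 between DG and UG on 0% grain, higher in DG to the right (red) and higher in UG to the left (blue). Full colours are the 10 libraries, pale colours the 4 DG and 3 UG libraries that matched their heifer label, and dotted lines the share among all 11,516 genes. The list rising in UG reached 38.5% and 52.3% higher in DG, against 6.15% and 5.70% of all genes.

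Names could be given to 18 genes, and 16 of these were tested. Of the 16, 13 had a higher and 3 a lower mean log2 level in DG, where 61.7% of all genes tested were higher in DG on the RPM scale. For 8 of the 16 the direction turned under at least 1 other processing or choice of libraries. An unadjusted limma p under 0.05 was reached by 3 of the 16 (*FOSB*, *CDHR2* and the uncharacterized ENSBTAG00000009144) and by 7.94% of all genes. The adjusted p-values of the 16 genes in limma were 0.536 or more. Most were named by the study for their change with diet in the same heifers.

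Of all genes tested, 149 (1.29%) had no overlap, 110 of them higher in DG (0.955%), and of the 16 named genes tested 1 had none. This was *FOSB* (ENSBTAG00000008182), a member of the AP-1 transcription factors that respond within minutes to growth factors and stress. Its RPM was 12.2, 15.5, 8.32, 8.86 and 13.2 in the DG libraries 192, 314, 236, 170 and 182, and 1.65, 6.11, 1.17, 7.84 and 6.25 in the UG libraries 262, 178, 352, 286 and 360. By label, every DG value lay above every UG value, with means of 11.6 ± 3.02 and 4.6 ± 3.00 RPM (SD, n = 5). This rests in part on the doubted labels 182 (13.2 RPM) and 286 (7.84 RPM): with these exchanged, DG and UG would overlap. Among the 7 libraries that matched, DG and UG did not overlap. The log2 difference was 1.35 (95% interval 0.54 to 2.17, limma unadjusted p = 0.00349, adjusted p = 0.536). An exact permutation test of RPM gave p = 0.00794, the smallest that 5 against 5 can give. Any gene without overlap gives this value, so it adds nothing to the separation, and it was not adjusted. In the 7 libraries that matched, the log2 difference was 1.21 (adjusted p = 0.519, limma). The BG heifers spanned both groups, from 3.2 to 35.0 RPM. On grain the log2 difference between DG and UG was -0.27 on 72% and -0.58 on 89% grain, with unadjusted limma p-values of 0.562 and 0.595.

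*CDHR2* (ENSBTAG00000025340), a cadherin that links neighbouring microvilli in the gut brush border, leaned toward UG. In the same order of libraries, DG had 7.23, 1.74, 2.6, 3.74 and 4.87 RPM and UG had 6.98, 11.8, 7.65, 5.24 and 5.43 RPM. Only heifer 192 of DG reached the range of UG. The log2 difference was -0.79 (95% interval -1.42 to -0.17, limma adjusted p = 0.592), and -0.97 in the 7 libraries (adjusted p = 0.589, limma). *VNN1* (ENSBTAG00000015094), a pantetheinase of the cell surface, ranged from 2.39 to 10.9 RPM among DG heifers and from 1.32 to 6.58 RPM among UG heifers, a log2 difference of 0.74 (95% interval -0.06 to 1.54, limma adjusted p = 0.637) that was 0.80 in the 7 libraries.

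ENSBTAG00000009144, an uncharacterized protein, had 5.87, 6.09, 3.39, 2.49 and 1.85 RPM in the DG libraries and 0.666, 0.797, 1.14, 1.06 and 4.26 RPM in UG. All UG libraries other than 360 lay below the lowest DG library. Its log2 difference was 0.99 (95% interval 0.25 to 1.73, limma adjusted p = 0.592), and 1.06 in the 7 libraries.

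*CYP1A1* (ENSBTAG00000001021) and *CYP1B1* (ENSBTAG00000010531) encode cytochrome P450 enzymes that the aryl hydrocarbon receptor induces. *CYP1A1* ranged from 80.0 to 423 RPM among DG heifers and from 62.7 to 218 RPM among UG heifers. Its log2 difference of 0.20 (95% interval -0.73 to 1.13, limma adjusted p = 0.90) became -0.03 in the 7 libraries. *CYP1B1* ranged from 21.7 to 94.1 RPM among DG heifers and from 16.5 to 48.3 RPM among UG heifers, with a log2 difference of 0.48 (95% interval -0.35 to 1.30, limma adjusted p = 0.724) that became 0.65 in the 7 libraries. For both genes the highest of the 10 values was that of heifer 170. On 72% grain the log2 differences were 0.85 and 0.91 (limma adjusted p = 0.655 and 0.721), and on 89% grain they were -0.48 and -0.65 (limma adjusted p = 0.969 for both). Both identifiers were chosen for falling in DG and rising in UG between these diets in the same heifers, which by itself favours this turn of sign.

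*CDSN* (ENSBTAG00000021721), which holds cornified cells together, and *KLK10* (ENSBTAG00000015129), a kallikrein-related serine protease, spanned wide ranges among heifers. *KLK10* ranged from 0.276 to 61.0 RPM among DG heifers and from 0.304 to 9.07 RPM among UG heifers, with a log2 difference of 0.93 whose 95% interval ran from -1.08 to 2.95, and 1.84 in the 7 libraries that matched. *CDSN* was not among the genes tested, since it did not exceed RPM 1 in all heifers on any diet. It ranged from 0.985 to 30.8 RPM among DG heifers and from 0.421 to 11.4 RPM among UG heifers, with p = 0.683 in a two-sided exact permutation test. *CHAC1* (ENSBTAG00000010371), which breaks down glutathione and is induced by amino acid stress, was likewise not tested with limma. It had a mean of 3.37 ± 2.78 RPM in DG, against 1.5 ± 1.23 RPM among UG heifers (SD, n = 5). A two-sided exact permutation test gave p = 0.23.

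**Figure D4:**
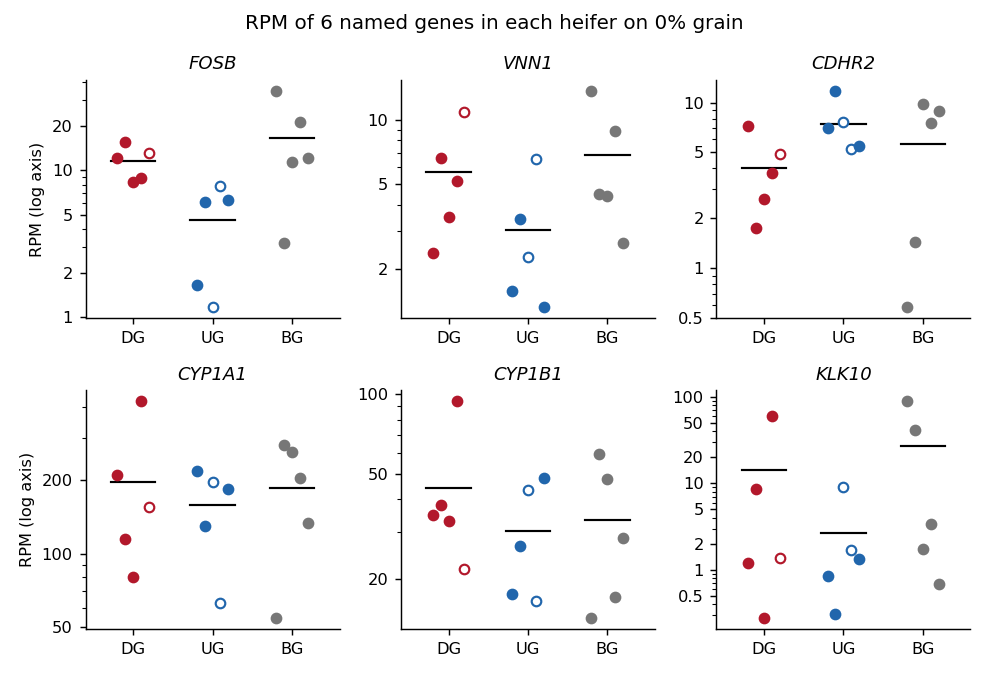
RPM (log axis) of 6 named genes in each library on 0% grain, with DG in red, UG in blue and BG in grey. Bars are group means of RPM, and open points are the libraries labelled 182, 286 and 352. By label, *FOSB* shows DG (8.32 to 15.5 RPM) above UG (1.17 to 7.84 RPM), and the other 5 genes overlap.

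Among growth factors and matrix genes, *BMP6* (ENSBTAG00000019234), of the bone morphogenetic proteins, had a log2 difference of 0.06 (95% interval -0.93 to 1.06). The library labelled 182 had 15.7 RPM and the other DG libraries 1.48 to 5.17 RPM. In the 7 libraries that matched, the difference turned to -0.76 (limma unadjusted p = 0.0278, adjusted p = 0.588). *LOXL2* (ENSBTAG00000006214), which cross-links collagen, turned from 0.15 to -0.33 in the same way. *CTGF* (ENSBTAG00000006367), a matrix-associated growth factor, had 5.36 ± 5.10 RPM among DG heifers and 2.52 ± 0.999 RPM among UG heifers, a log2 difference of 0.47 that became 0.02 in the 7 libraries.

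DG and UG overlapped in both named genes of immunity. *BOLA-A* (ENSBTAG00000005182), an MHC class I heavy chain, had 8.56 ± 5.00 RPM among DG heifers and 8.07 ± 3.86 RPM among UG heifers (log2 difference -0.05, 95% interval -1.01 to 0.90, and -0.36 in the 7 libraries). C-X-C motif chemokine 6 (ENSBTAG00000009812), which attracts neutrophils, ranged from 0.563 to 24.1 RPM among DG heifers and from 0.721 to 7.84 RPM among UG heifers (log2 difference 0.45, 95% interval -1.04 to 1.95), and its difference was 1.22 in the 7 libraries and -0.15 without heifer 170. Both belong to families with close copies, so that counting by gene may split their reads. *ABCG1* (ENSBTAG00000021272), which exports cholesterol, *LIFR* (ENSBTAG00000010423), a cytokine receptor subunit, and *CXorf57* (ENSBTAG00000003668) had log2 differences between 0.15 and 0.26 (0.56, 0.44 and 0.15 in the 7 libraries), and *RASL1A* (ENSBTAG00000005244), a RAS-like GTPase, had -0.44, which turned to 0.29 in the 7 libraries that matched. Their adjusted p-values in limma were 0.755 or more. In bulk biopsies, fewer cells of a type and less RNA per cell cannot be told apart.

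Most genes are known here by identifier only. With a fold change over 1.5 and no overlap there were 16 genes higher in DG and 6 higher in UG. Of the 10 with the smallest p in DG and these 6 in UG, log2 differences ran from 0.59 to 0.96 and from -0.84 to -0.59, all with limma adjusted p-values of 0.534 or more. DESeq2 on the recovered reads called 8 of these genes, where edgeR called 0. ENSBTAG00000037465 had the smallest p of the genes higher in UG. It had 3.02, 4.82, 4.69, 4.45 and 3.21 RPM in the DG libraries and 7.68, 7.10, 6.64, 7.35 and 6.99 RPM in UG, a log2 difference of -0.71 (95% interval -1.0 to -0.42, limma adjusted p = 0.534). DESeq2 gave it an adjusted p of 0.0003 and edgeR one of 0.373. The 5 UG values lay close together. The log2 difference was -0.67 in the 7 libraries. Overlap was not possible there, because the gene was chosen for no overlap in all 10 libraries. On 72% and 89% grain the log2 differences were -0.03 and -0.15. ENSBTAG00000025477 had the smallest p of those higher in DG, with 6.76, 4.98, 7.21, 6.98 and 4.97 RPM in the DG libraries against 2.95, 4.18, 2.5, 3.53 and 3.82 RPM in the UG libraries. Its log2 difference was 0.71 (95% interval 0.38 to 1.03, and 0.69 in the 7 libraries) on 0% grain, 0.37 on 72% grain and 0.27 on 89% grain. On 0% grain its adjusted p was 0.0226 in DESeq2 and 0.556 in edgeR.

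A further pair was chosen after the values were seen. ENSBTAG00000005353 had the largest difference toward UG among genes with an unadjusted p under 0.05, with 1.89, 2.28, 5.28, 1.18 and 2.47 RPM in the DG libraries and 23.5, 7.14, 8.03, 10.2 and 2.94 RPM in UG (log2 difference -1.49, limma adjusted p = 0.534, and -1.45 in the 7 libraries). ENSBTAG00000047547 had 150.2, 107.1, 28.9, 105.3 and 121.2 RPM in the DG libraries and 33.7, 27.7, 30.9, 28.5 and 25.8 RPM in UG (log2 difference 1.60, limma adjusted p = 0.534). With all 10 libraries its adjusted p was 7.19e-05 in DESeq2 and 0.373 in edgeR. Heifer 236 alone of DG lay in the range of UG. The gene was chosen because it passed the threshold in limma without that library (log2 difference 2.0, limma adjusted p = 4.72e-05). Since the library left out held the only low DG value, this limma call is not evidence of a difference between the groups. This gene is also one by which the labels can be read. In the 13 other heifers its level was alike on all diets, either at 33.7 RPM or below or at 99.7 RPM or above. The libraries labelled 182 went from 121.2 RPM on 0% grain to 25.5 and 24.0 RPM on 72% and 89% grain, and those labelled 286 from 28.5 to 98.3 and 145.2 RPM. With the 7 libraries that matched, its log2 difference was 1.51 (limma adjusted p = 0.548).

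**Figure D5:**
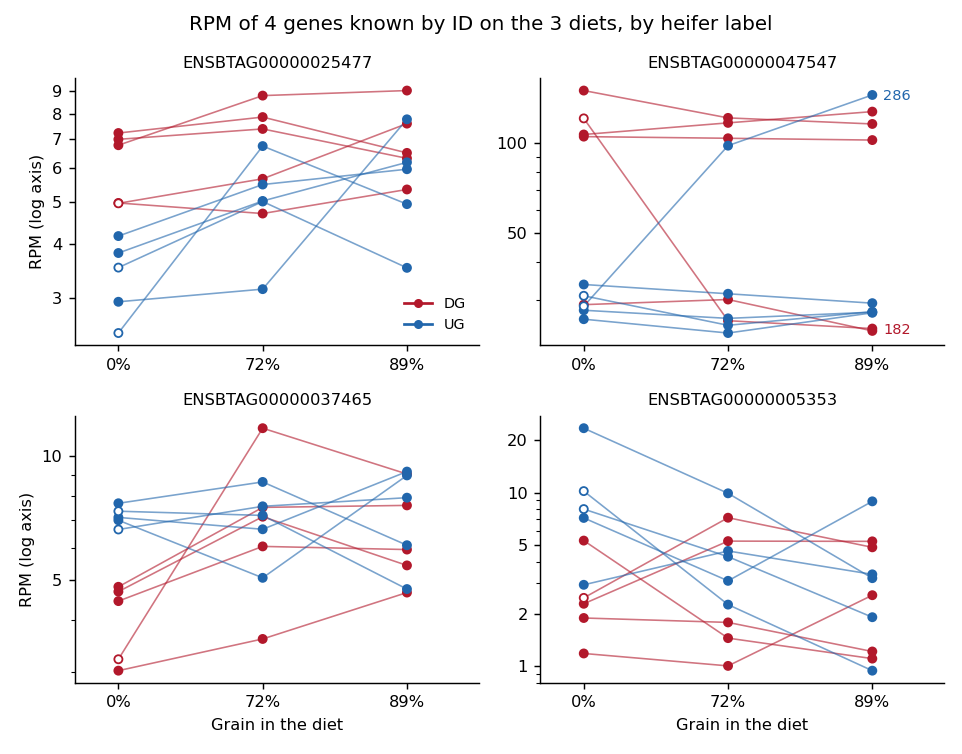
RPM (log axis) of 4 genes known by identifier on 0%, 72% and 89% grain, with 1 line for each heifer label (red DG, blue UG) and open points for the 0% grain libraries labelled 182, 286 and 352. ENSBTAG00000025477 and ENSBTAG00000037465 are apart on 0% grain and overlap on grain. ENSBTAG00000047547 keeps its level across diets in each heifer but for the labels 182 and 286, whose lines cross.

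The genes with an unadjusted p under 0.05 on 0% grain were followed in the same heifers on grain, as a description without a test, with the doubt on the labels 182, 286 and 352 unresolved on grain too. Of the 708 genes higher in DG, 495 (69.9%) were higher in DG on 72% grain, where 43.5% of all genes were, and 501 (70.8%) on 89% grain, where 62.0% of all genes were. Of the 206 genes higher in UG, 140 (68.0%) were higher in UG on 72% grain and 163 (79.1%) on 89% grain, where 56.5% and 38.0% of all genes were. Their median differences shrank from 0.38 to 0.09 and 0.08 for the genes higher in DG, and from -0.36 to -0.09 and -0.12 for those higher in UG. The same fits on 72% and 89% grain called 0 genes each, with 792 and 395 genes at an unadjusted p under 0.05. The BG heifers, on 0% grain, had means between those of DG and UG for 558 of the 708 genes and 157 of the 206. BG was nearer to UG for 372 of the 708 (52.5%) and nearer to DG for 132 of the 206. These genes were chosen for a difference between DG and UG in these libraries, which by itself favours a BG mean in between. The matching share of all genes was not computed, so no position of BG is read from these counts.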

How the data were processed

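The authors demultiplexed reads with CASAVA 1.8, aligned them to the bovine UMD 3.1 genome with Tophat 2.0.10, counted reads per gene of the Ensembl v75.30 annotation with htseq-count (strand setting not given in the sources used here) and deposited each gene's RPM, its reads per 1000000 counted reads. In every library 99.99% or more of the values above 0 were whole reads to within 0.001 read, and these reads were recovered. Because the files hold RPM, limma 3.58.1 (R 4.3.3) was fitted with a variance trend to log2(RPM + 1) over 11,516 of 24,616 genes, those above RPM 1 in every heifer on 1 diet or more, with only the 10 libraries compared and Benjamini-Hochberg adjustment over all genes. Differences are DG minus UG on that scale, which understates the change of low genes. Each heifer gave 1 biopsy per diet, so the spread is that between heifers. Two-sided exact permutation tests ran over all regroupings, and that of the share of variance was one-sided by construction. edgeR 4.0.16 and DESeq2 1.42.0 on the recovered reads, other scalings, pseudocounts, filters, samples and each heifer left out were alternatives. The fit was also run on simulated counts with the same dispersion for every gene, which these libraries need not have, and no result here rests on it. The identifiers were not paired with names in the tables used, so the planned pathway and cell type marker lists could not be applied, the tissue was not checked against its markers, and positions are not given. The study gives 13 names by identifier. The other 5 (*CYP1A1*, *CYP1B1*, *CHAC1*, *CDSN*, *KLK10*) were assigned as the only genes in both its DG and UG lists with opposite directions, and told apart by the fold changes the study gives. These names were not checked against the annotation. Named genes were these 18, plus, where under 20 passed, the 10 in each direction with the smallest p among those with a fold change over 1.5 and no overlap. The members and lists were chosen with earlier results of these data known. The check of heifer labels and the fits without the libraries labelled 182, 286 and 352 were added after the data were seen. The recovery of reads, the label check and the plots used numpy 2.4.6, pandas 2.3.3 and matplotlib 3.10.9 under Python 3.11.15.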

Additional observations from a re-analysis of the deposited data

Results flagged for a closer look

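Within the groups of 5, 8 values of the named genes stood apart from the other 4 by Dixon's ratio (critical value 0.71), of 44 groups of values examined. Chance gives about 1 in 20 such groups where values are normally distributed, which was not tested for RPM. Heifer 170 (DG) had 4 of them, all high: C-X-C motif chemokine 6 at 24.1 RPM (next 4.97), *ABCG1* at 7.31 RPM (next 2.88), *CYP1B1* at 94.1 RPM (next 37.9) and *KLK10* at 61.0 RPM (next 8.53). The library labelled 182 (DG) was high in *BMP6* at 15.7 RPM (next 5.17). In UG, heifer 360 was high in ENSBTAG00000009144, the uncharacterized protein, at 4.26 RPM (next 1.14) and low in *LIFR* at 1.58 RPM (next 3.03), and the library labelled 352 was high in *KLK10* at 9.07 RPM (next 1.71).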

How the results depend on the processing

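The count of 0 genes past the threshold held under every scaling, pseudocount, filter and sample choice tried but for DESeq2, which called 10 genes (5 in each direction, adjusted p from 7.19e-05 to 0.0458, where edgeR gave the same genes 0.373 to 0.556), and 2 of the 10 fits with a heifer left out, so that these ranged from 0 to 1 gene. The gene without heifer 236 was ENSBTAG00000047547, and that without heifer 192 was one with a log2 difference of 0.47 in all 10 libraries and 0.64 without it (limma adjusted p = 0.0373). With all 45 libraries and the heifer as a replicate block, limma called 0 genes (smallest adjusted p 0.391). No paired analysis of DG against UG was possible because the groups hold different heifers. The share of variance ranged from 12.4 to 17.9% and the DG minus UG difference in spread from 0.743 to 9.02 with each heifer left out, none with p under 0.05 (exact permutation tests). Without heifer 262, 608 genes had an unadjusted p under 0.05, against 914.

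Several named genes changed sign, none past the threshold, and the cause was not tested. *BOLA-A* turned to 0.035 in edgeR and 0.037 in DESeq2, and to 0.37, 0.005 and 0.16 without heifers 170, 286 and 360 (-0.30 to 0.37 with each heifer left out). *BMP6* turned to -0.35 and -0.20 without 182 and 352, to -0.39 without 182 and 286 and to -0.76 in the 7 libraries that matched (highest 0.34, without 170). C-X-C motif chemokine 6 (-0.15, highest 0.85 without another heifer), *ABCG1* (-0.15, highest 0.33) and *CYP1A1* (-0.14, highest 0.46) turned without heifer 170, and *CYP1A1* also without 286 (-0.10), without 182 and 286 (-0.078) and in the 7 libraries (-0.032). *LOXL2* turned to -0.082 without 182 (highest 0.39), -0.14 without 182 and 286 and -0.33 in the 7. *CXorf57* turned to -0.0096 with a pseudocount of 0.1, and to -0.02, -0.25 and -0.11 without 192, 314 and 262 (highest 0.80). *RASL1A* turned to 0.29 in the 7.

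In the list rising in UG, the genes higher in DG at an unadjusted p under 0.05 ranged from 25 without heifer 170 to 53 without 182 and from 30 to 57 under the other alternatives, and the median log2 difference from 0.28 to 0.57. The list higher on 89% than on 0% grain ranged from 49 genes without heifer 262 to 99 without 182. Marker lists were not run, since the identifiers could not be named.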
